A study of Homo sapiens with 9 samples.

Results

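The genes of the nuclear lamina, of the LINC complex and of the inner nuclear membrane were examined in RNA sequencing of HEK293T cells, a line derived from human embryonic kidney, during heat stress and recovery. The set holds 10 genes, which were chosen by their place in the nuclear envelope and not by a threshold on their values: the lamin genes LMNA, LMNB1 and LMNB2, the membrane protein genes LBR, EMD and TMPO, the SUN genes SUN1 and SUN2, and the nesprin genes SYNE1 and SYNE2. This choice was made with earlier results of these data known. The count table holds 60664 genes, of which 21139 had enough counts to be tested, and all 10 genes were among them. Cells kept at 37 °C without treatment (NC, n = 2) were set beside cells held at 43 °C for 1 h (H1, n = 2) and beside cells that had the same heat and a recovery at 37 °C of 1 h (H1R1, n = 2), 6 h (H1R6, n = 2) or 18 h (H1R18, n = 1). The sample titles call the NC cells untreated wild-type, and those of the heated cells name no genotype. The line is an established one that carries the SV40 large T antigen, and the labels name no treatment other than heat. The labels do not say that the libraries came from separate cultures, so the p-values measure the spread between these libraries, which may be technical. They also do not say when the NC cells were collected, so recovery and time in culture cannot be told apart at any of the recovery times.

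The nuclear lamina is a meshwork of intermediate filament proteins, the lamins, that lines the inner nuclear membrane. Lamins A and C come from LMNA by alternative splicing, and the B-type lamins from LMNB1 and LMNB2. SUN proteins cross the inner membrane and bind the nesprins of the outer membrane in the space between, and together they form the LINC complex, the linker of nucleoskeleton and cytoskeleton. The lamin B receptor LBR, emerin (EMD) and the lamina-associated polypeptides of TMPO are inner membrane proteins, or in some TMPO isoforms soluble nuclear proteins, that tie the lamina to chromatin.

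The 9 libraries held 3814195 to 6221613 counts, with each read of a pair counted. The heat treatment was visible in the co-chaperone gene DNAJB1, which stood at 1910 and 2096 CPM (counts scaled to a common library size) in H1 against 69.5 and 80.4 CPM in NC. All 7 HEK293T marker genes were detected, INA only at 0.353 to 2.00 CPM. Of 6 markers of other cell types, PTPRC, ALB, PECAM1, CDH5 and HBB stayed between 0 and 0.835 CPM in every library, and COL1A1, a collagen gene, lay between 44.0 and 64.2 CPM. In bulk RNA, fewer cells of a type and less RNA per cell cannot be told apart. All CPM values are scaled by the trimmed mean of M values (TMM).

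To compare genes with each other, CPM were divided by the kilobases of annotated exon. In NC cells LMNB2 stood first, at 80.3 ± 6.15 CPM per kb (SD, n = 2), and LMNB1 and LBR followed at 62.1 ± 2.38 and 61.0 ± 1.81 CPM per kb. The ranges of LMNB1 and LBR overlapped, so their order is not resolved. EMD had 53.7 ± 1.63 CPM per kb and TMPO 37.1 ± 1.62 CPM per kb. A lower tier followed in which SUN1 had 13.4 ± 0.317, LMNA 11.6 ± 0.693, SUN2 9.20 ± 0.899 and SYNE2 8.19 ± 0.390 CPM per kb. Each of these neighbours was apart from the next in both libraries. SYNE1, which encodes nesprin-1, was lowest at 0.757 ± 0.118 CPM per kb. The exon length of SYNE1 is the union of 153 merged exons over 47523 bases, so short isoforms are spread over the full length in this scale. In the H1R18 library the per-kb order differed. EMD had moved to the second place with 71.5 CPM per kb, above LBR at 37.2 and LMNB1 at 30.1 CPM per kb, and LMNA at 8.23 lay just under SYNE2 at 8.36 CPM per kb.

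**Figure D1:**
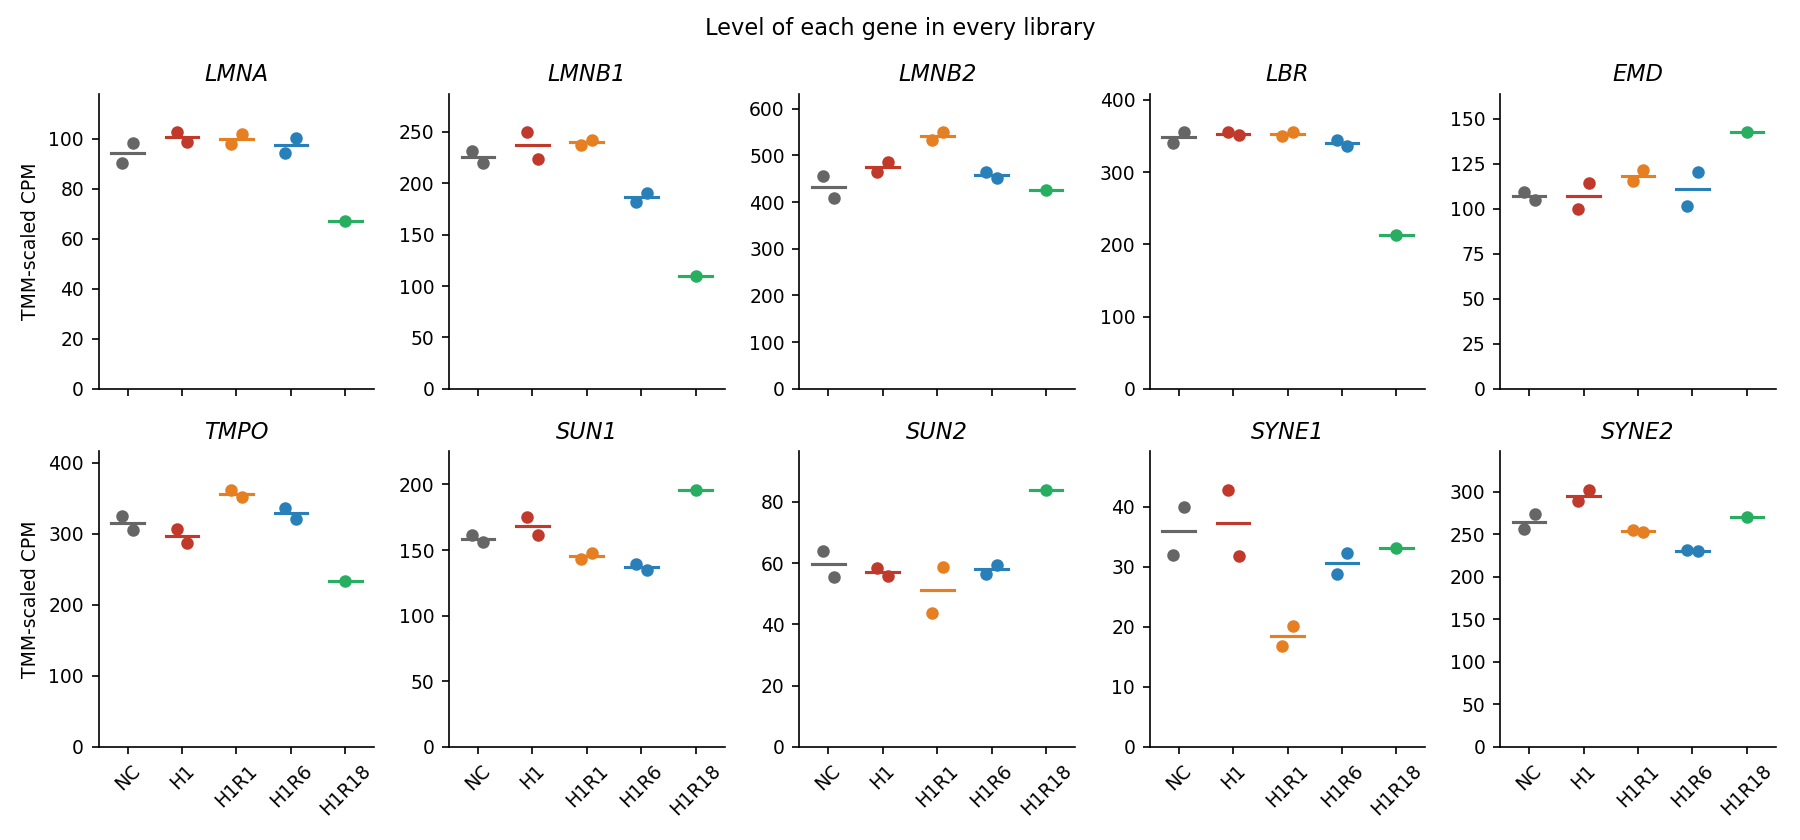
TMM-scaled CPM (vertical axes, each starting at 0) of the 10 genes in every library, by condition from NC to H1R18. Points are libraries and bars are condition means, with 1 library in H1R18. SYNE1 dips in H1R1, at 16.7 and 20.2 CPM, and LMNB1, LBR, TMPO and LMNA are lowest in H1R18.

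LMNA and LBR share chromosome 1, and each of the other genes lies on a chromosome of its own. In GRCh38 with the Ensembl 104 annotation, LMNB1 lies on the plus strand at chr5:126776623-126837020, SYNE1 on the minus strand at chr6:152121687-152637801, and LMNB2 on the minus strand at chr19:2427638-2456959. Several share exon bases with another gene, and reads that fell on both were not counted. GET4 covers 15.5% of the SUN1 exon bases on the same strand, GTPBP1 covers 10.5% of those of SUN2 on the other strand, and the antisense gene TMPO-AS1 covers 7.60% of those of TMPO. Strand was not used in counting. TMPO-AS1 had at most 36 counts in a library. TMPO also has processed pseudogenes, and reads that map equally well to a copy were not counted, so its level is uncertain to that extent.

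RefSeq start sites with 250 bases of upstream sequence (GRCh38.p14) were at hand for 9 of the 10 genes, all but SUN1, in 20 windows. The windows of TMPO, EMD and SUN2 are shown because TMPO was lower and EMD and SUN2 were higher at 18 h, and because each held more than 1 CCAAT box, the binding site of the trimeric factor NF-Y. Capitals mark CCAAT. The TMPO sequence is chr12:98515323-98515541 on the plus strand, the EMD sequence chrX:154379045-154379226 on the plus strand and the SUN2 sequence chr22:38755999-38756248 on the minus strand, each written 5′ to 3′ along its gene and ending 32, 69 and 1 bases before its RefSeq start. The starts of these windows lie 6 bases (TMPO), 22 bases (EMD) and 38145 bases (SUN2) from the 5′ end of the gene in the Ensembl annotation, so that the SUN2 start is an internal one.
TMPO: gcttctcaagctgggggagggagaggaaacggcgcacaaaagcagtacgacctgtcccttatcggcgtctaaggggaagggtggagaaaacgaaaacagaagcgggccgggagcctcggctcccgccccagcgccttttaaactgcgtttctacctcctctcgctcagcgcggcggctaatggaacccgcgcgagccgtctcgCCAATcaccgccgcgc
EMD: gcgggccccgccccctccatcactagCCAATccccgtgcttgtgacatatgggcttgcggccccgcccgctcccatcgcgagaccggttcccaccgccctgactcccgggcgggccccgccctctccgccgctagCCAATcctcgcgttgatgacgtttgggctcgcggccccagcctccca
SUN2: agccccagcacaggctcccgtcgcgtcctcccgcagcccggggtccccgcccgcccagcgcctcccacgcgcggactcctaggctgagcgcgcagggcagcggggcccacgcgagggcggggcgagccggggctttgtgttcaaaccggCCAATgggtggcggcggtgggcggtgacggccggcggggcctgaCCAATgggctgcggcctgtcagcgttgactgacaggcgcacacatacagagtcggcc
In the full windows, the CCAAT boxes began 47 and 15 bases before the TMPO start (the second lies beyond the stretch shown), 224 and 115 bases before the EMD start, and 101 and 57 bases before the SUN2 start. Searched on both strands in any window of a gene, CCAAT occurred in 7 of the 9 genes and in 37% of all 27305 genes with a window. A gene with more windows has more places for a match. By window, CCAAT occurred in 8 of the 20 windows and in 32% of all 35116 windows. The core letters of a heat shock element, GAANNTTC, occurred in 0 of the 9 genes and in 7.05% of all genes. The E2F-type letters TTTNNCGC occurred in LMNA and SYNE2 and in 7.15% of all genes, and TTTGAA, the letters of the cell cycle genes homology region, in LMNB2 and SUN2 and in 16.1% of all genes. TATAAA occurred in SYNE1 and in 13% of all genes. By window, TTTNNCGC occurred in 3 of the 20 and in 5.92% of all windows. TTTGAA occurred in 2 of the 20 and in 13.3% of all windows, and TATAAA in 1 of the 20 and in 10.7%. A match describes letters in a window, and which start these cells used was not measured.

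To ask whether envelope transcripts responded during heat itself, H1 was compared with NC. None of the 10 genes passed the test after 1 h at 43 °C, where 5.20% of all tested genes did (3.43% higher and 1.77% lower). Their log2 fold changes lay between -0.09 for TMPO and 0.16 for SYNE2, with standard errors (SE) of 0.07 to 0.18. By edgeR's quasi-likelihood test 0 genes had an adjusted p under 0.05 and 1 gene had an unadjusted p under 0.05, and DESeq2 also called 0. That gene was SYNE2, the giant nesprin-2, which had 289 and 302 CPM in H1 against 256 and 274 CPM in NC. Its libraries did not overlap, and the adjusted p of 0.275 missed the threshold. Of the 10 genes, 4 lay above NC in both H1 libraries (LMNA, SUN1, SYNE2 and LMNB2) and 0 below. With 2 libraries against 2, an exact permutation test cannot give a p under 0.33, so non-overlap is a description. LMNB2 had 465 and 485 CPM in H1 against 457 and 410 CPM in NC, a log2 fold change of 0.13 ± 0.07 (SE) with adjusted p = 0.335. LBR had 355 and 351 CPM in H1 against 341 and 355 CPM in NC, and its groups overlapped. The median log2 fold change of the 10 genes was 0.06, beside -0.0052 over all tested genes.

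**Figure D2:**
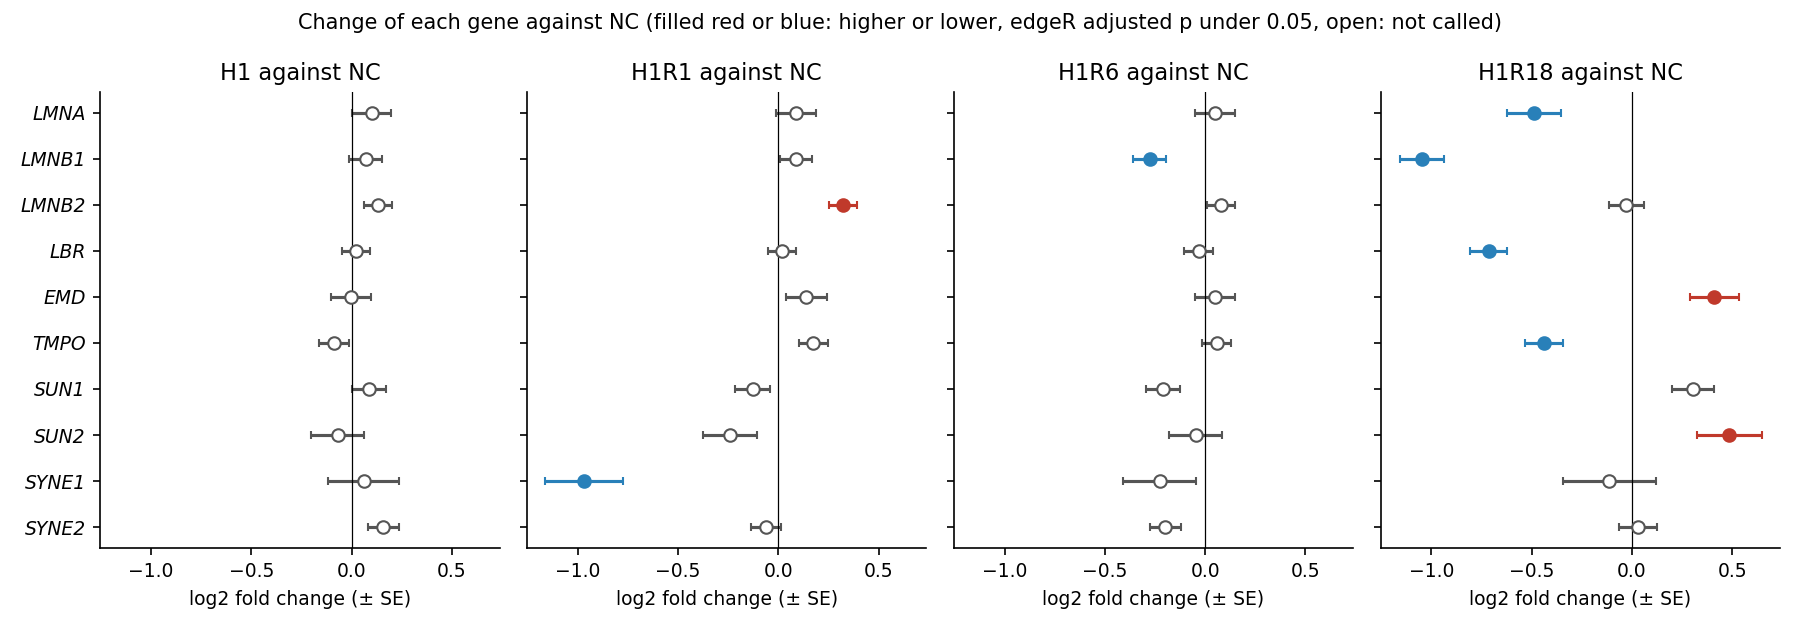
Log2 fold change against NC (horizontal axis) with its SE for the 10 genes in H1, H1R1, H1R6 and H1R18. Filled points passed edgeR's test in the direction of their colour and open points did not. No point is filled in H1, and 6 are filled in H1R18.

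At 1 h after the return to 37 °C, LMNB2 rose and SYNE1 fell, and the other 8 genes did not pass the test. This is 1 gene higher and 1 lower of 10, where 20.2% of all tested genes passed (10.7% higher and 9.53% lower). Those shares include genes with few counts. With at least 10 counts in every library, which all 10 genes had, the same 2 calls stood beside 2129 higher and 1915 lower of 13516 genes. SYNE1 encodes the giant nesprin-1, which spans the outer nuclear membrane and reaches towards actin. It had 16.7 and 20.2 CPM in H1R1 against 32.0 and 39.9 CPM in NC, and the groups did not overlap. Of the 10 genes, called or not, 4 lay above and 3 below NC in both H1R1 libraries. The SYNE1 level fell to 0.511 of that in NC (log2 fold change -0.97 ± 0.19 SE, edgeR adjusted p = 0.00048). SYNE1 rests on 100 and 86 counts in the H1R1 libraries against 157 and 153 counts in the NC libraries, the lowest counts of the set. In read pairs these are about 50 and 43 in H1R1 against 78 and 76 in NC. The call held in all 18 alternatives of the processing, with adjusted p between 1.46e-05 and 0.0254.

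SYNE2, the closest relative of SYNE1, had 255 and 252 CPM in H1R1 against 256 and 274 CPM in NC (log2 fold change -0.06 ± 0.08 SE, adjusted p = 0.625). Set against H1, where SYNE2 had stood highest, its log2 fold change was -0.22 ± 0.08 SE and its adjusted p of 0.0543 lay just above the threshold. Of the 18 alternatives, 8 called it. SYNE1 fell against H1 as well, with 16.7 and 20.2 CPM in H1R1 against 42.8 and 31.8 CPM in H1 (log2 fold change -1.03 ± 0.19 SE, adjusted p = 0.000383).

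LMNB2 had 534 and 550 CPM in H1R1 against 457 and 410 CPM in NC, so that both recovery libraries lay above both control libraries. The level was 1.25-fold higher (log2 fold change 0.32 ± 0.07 SE, adjusted p = 0.00107), and all 18 alternatives called it. TMPO encodes the lamina-associated polypeptide 2 isoforms and had 362 and 351 CPM in H1R1 against 306 and 287 CPM in H1. It rose between these times (log2 fold change 0.26 ± 0.07 SE, adjusted p = 0.0164). Against NC, with 325 and 306 CPM, its adjusted p was 0.0964. The TMPO call between H1R1 and H1 was lost without H1 replicate 1, H1 replicate 2 or H1R1 replicate 1 (adjusted p 0.0594, 0.258 and 0.126) and with scaling by library size only (0.0566). In the comparison of H1R1 with H1, 1 of 10 genes was higher and 1 lower, where 11.4% of all tested genes passed (6.35% higher and 5.08% lower). Without NC replicate 1 or without NC replicate 2 the calls in this comparison numbered 4, as LMNB2 (adjusted p 0.0438 and 0.0431) and SYNE2 (0.0319 and 0.0334) then passed too.

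The SUN genes did not pass the test at 1 h of recovery. SUN1 had 143 and 147 CPM in H1R1 against 161 and 156 CPM in NC (adjusted p = 0.332). SUN2 had 43.8 and 58.6 CPM in H1R1 against 63.8 and 55.6 CPM in NC (adjusted p = 0.23). The SUN2 value differed most between its own H1R1 replicates, and without H1R1 replicate 2 its log2 fold change was -0.45 with adjusted p = 0.0423. LMNA, LMNB1, LBR and EMD lay within 0.02 to 0.14 of NC on the log2 scale.

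At 6 h of recovery, LMNB1 was the 1 gene of 10 that passed the test against NC, where 7.03% of all tested genes did (3.0% higher and 4.03% lower). SYNE1, with 28.8 and 32.3 CPM in H1R6 against 32.0 and 39.9 CPM in NC, overlapped with NC again (adjusted p = 0.551). LMNB1 encodes lamin B1, and it had 182 and 191 CPM in H1R6 against 232 and 219 CPM in NC (log2 fold change -0.28 ± 0.08 SE, adjusted p = 0.0347). This call stood close to the threshold and was kept in 9 of 18 alternatives. DESeq2 (adjusted p = 0.0706), library-size scaling (0.064), no low-count filter (0.105) and a fit of these 2 conditions alone (0.0554) lost it. So did leaving out NC replicate 1 or 2 (0.232 and 0.0686), H1 replicate 2 (0.0592) or H1R6 replicate 1 or 2 (0.293 and 0.166). The value kept its sign throughout, between -0.30 and -0.22 in the alternatives that lost the call.

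Between 1 h and 6 h of recovery, 3 genes passed the test. LMNB1 fell, with 182 and 191 CPM in H1R6 against 238 and 242 CPM in H1R1 (log2 fold change -0.36 ± 0.08 SE, adjusted p = 0.00199). LMNB2 fell, with 465 and 451 CPM in H1R6 against 534 and 550 CPM in H1R1 (log2 fold change -0.24 ± 0.07 SE, adjusted p = 0.0151). SYNE1 rose, with 28.8 and 32.3 CPM in H1R6 against 16.7 and 20.2 CPM in H1R1 (log2 fold change 0.74 ± 0.19 SE, adjusted p = 0.00759). These calls are 1 gene higher and 2 lower of 10, where 15.4% of all tested genes passed (6.43% higher and 8.93% lower). The libraries of the called genes did not overlap. Of the 10 genes, called or not, 1 lay higher and 6 lower in both H1R6 libraries than in H1R1. LBR (adjusted p 0.699) and SUN1 (0.587) were among these 6 and were not called. Leaving out H1R6 replicate 1 ended the calls of LMNB1 and LMNB2 (adjusted p 0.0636 and 0.0814). Leaving out H1R6 replicate 2 ended those of SYNE1 and LMNB2 (0.0786 and 0.147), H1R1 replicate 1 that of SYNE1 (0.129) and H1R1 replicate 2 that of LMNB2 (0.0822), and library-size scaling ended that of LMNB2 (0.148).

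The remaining genes at 6 h stood near NC. SYNE2 had 231 CPM in both H1R6 libraries against 256 and 274 CPM in NC, and SUN1 had 140 and 134 CPM in H1R6 against 161 and 156 CPM in NC. Both lay below NC in both libraries, and neither passed the test (adjusted p 0.125 and 0.16). LMNA, LMNB2, LBR, EMD, TMPO and SUN2 overlapped with NC.

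The H1R18 library differed from NC in 6 of the 10 genes, where 11% of all tested genes passed (4.58% higher and 6.43% lower). LMNB1, LBR, TMPO and LMNA were lower, and EMD and SUN2 were higher. With at least 10 counts in every library, 3 of the 10 genes were higher and 4 lower, beside 1231 higher and 1201 lower of 13516 genes. As H1R18 is a single library, the test borrows the spread of the other conditions, and the lone library is assumed to vary like them.

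LMNB1 had 109 CPM in H1R18 against 232 and 219 CPM in NC, which is 0.484 of the control level (log2 fold change -1.05 ± 0.11 SE, edgeR adjusted p = 5.67e-08). LBR, which binds B-type lamins and heterochromatin proteins and also acts as a sterol reductase, had 212 CPM in H1R18 against 341 and 355 CPM in NC. That is 0.61 of the control level (log2 fold change -0.71 ± 0.09 SE, adjusted p = 2.09e-06). TMPO had 233 CPM in H1R18 against 325 and 306 CPM in NC (log2 fold change -0.44 ± 0.09 SE, adjusted p = 0.00188). These 3 genes were called lower in all 17 alternatives that hold this library.

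LMNA had 67.0 CPM in H1R18 against 90.1 and 98.1 CPM in NC (log2 fold change -0.49 ± 0.13 SE, adjusted p = 0.0142). EMD, the gene of emerin, had 143 CPM in H1R18 against 110 and 105 CPM in NC (log2 fold change 0.41 ± 0.12 SE, adjusted p = 0.0268). SUN2 had 83.9 CPM in H1R18 against 63.8 and 55.6 CPM in NC (log2 fold change 0.49 ± 0.16 SE, adjusted p = 0.0483). All 3 calls were lost with DESeq2 (adjusted p 0.0624 for LMNA, 0.059 for EMD and 0.114 for SUN2), and all 3 were lost without NC replicate 2 (0.0737, 0.0696 and 0.164). SUN2 was also lost without H1 replicate 1 or 2 (0.0675 and 0.0585) and without a filter on low counts (0.0552).

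SUN1 had 196 CPM in H1R18 against 161 and 156 CPM in NC (log2 fold change 0.30 ± 0.11 SE). Its adjusted p of 0.0594 missed the threshold in the reported fit and passed it in 5 of 17 alternatives. LMNB2, with 425 CPM in H1R18 against 457 and 410 CPM in NC, lay between its control libraries. SYNE2 had 271 CPM in H1R18 against 256 and 274 CPM in NC, and SYNE1 had 33.1 CPM in H1R18 against 32.0 and 39.9 CPM in NC. Both nesprins thus overlapped with NC at 18 h.

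Against H1R6 the H1R18 library differed in 7 of the 10 genes, 3 higher and 4 lower, where 13.9% of all tested genes passed (6.28% higher and 7.65% lower). LMNB1, LBR, LMNA and TMPO were lower by 0.77, 0.68, 0.54 and 0.50 on the log2 scale, with adjusted p of 9.49e-06, 3.73e-06, 0.00472 and 0.0004. SUN1 rose, with 196 CPM in H1R18 against 140 and 134 CPM in H1R6 (log2 fold change 0.51 ± 0.10 SE, adjusted p = 0.000832). SUN2 rose as well (0.53 ± 0.16 SE, adjusted p = 0.0219), and EMD had 143 CPM in H1R18 against 102 and 120 CPM in H1R6 (0.36 ± 0.12 SE, adjusted p = 0.0431). The calls of SUN2 and EMD were lost with DESeq2 (0.0639 and 0.0924) and without H1R6 replicate 1 (0.0977 and 0.285). SUN2 was lost too without H1R6 replicate 2 (0.061), and EMD without H1 replicate 1 or 2 (0.0544 and 0.0509) and without a filter on low counts (0.124). With at least 10 counts in every library, 3 higher and 4 lower of the 10 genes stood beside 1548 higher and 1568 lower of 13516 genes. The comparisons with NC and with H1R6 share the H1R18 library.

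The composition of the lamin transcripts is given as shares of counts per kb of exon, with no test. LMNB1 made up 25.7% of the 3 lamin genes in H1R18, 34.6 ± 1.04% in H1R6 (SD, n = 2) and 40.3 ± 0.509% in NC. LMNB2 made up 67.3% in H1R18 against 52.1 ± 1.34% in NC, and LMNA 7.02% in H1R18 against 7.53 ± 0.833% in NC. The summed lamin level was 117 CPM per kb in H1R18 against 159 and 148 CPM per kb in NC, and it was highest in H1R1, at 176 and 181 CPM per kb. In read pairs, LMNB1 took 213 of 1172 lamin pairs in H1R18, or 18.2% (95% Wilson interval 16.1 to 20.5%), against 29.8% (27.8 to 31.9%) and 30.2% (27.8 to 32.6%) in the NC libraries. These intervals cover counting error only.

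**Figure D3:**
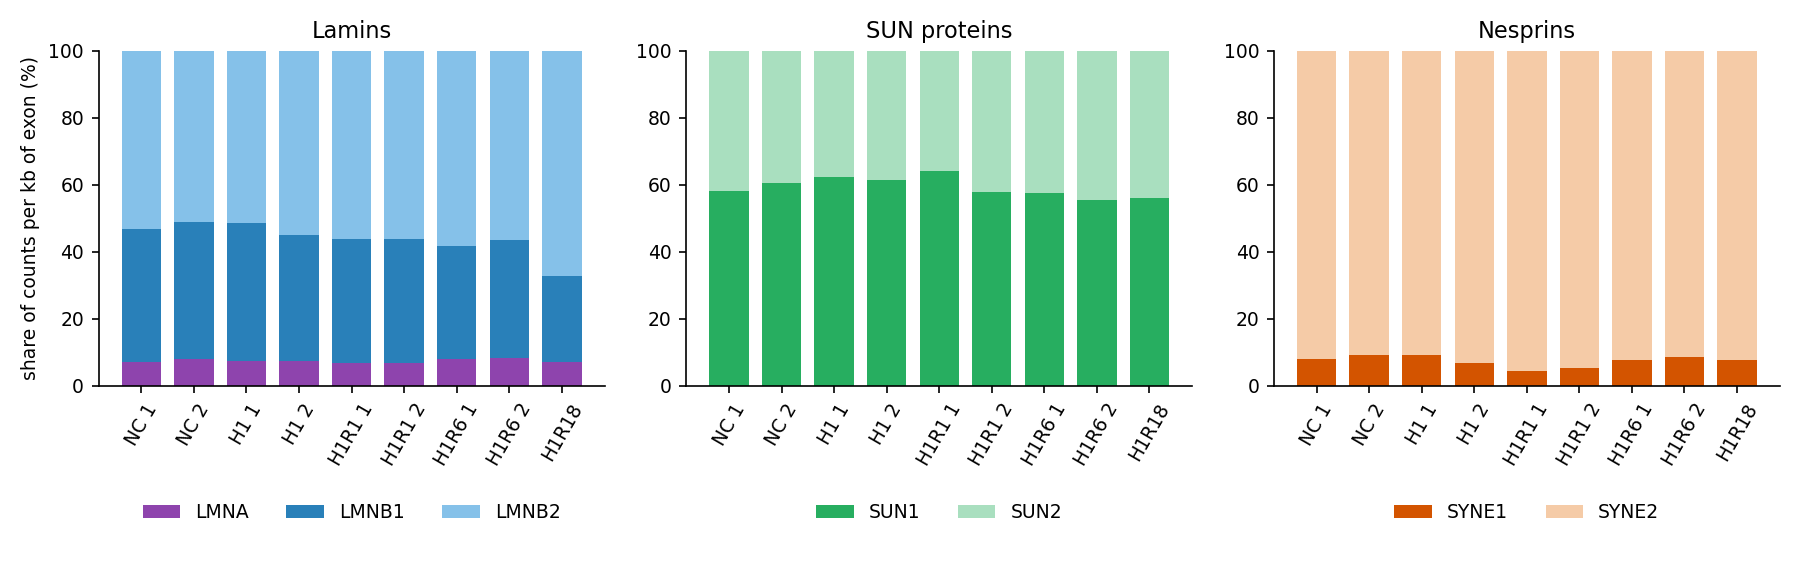
Share of counts per kb of exon (vertical axis, %) of each lamin, SUN and nesprin gene within its own set, in each of the 9 libraries. LMNB1 narrows to 25.7% of the lamins in H1R18, and SYNE1 narrows to 4.28% and 5.16% of the nesprins in H1R1.

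SUN1 held 56.1% of the SUN pair in H1R18 against 59.3 ± 1.79% in NC. SYNE1 held 4.72 ± 0.624% of the nesprin pair in H1R1 against 8.44 ± 0.837% in NC. In H1R6 it held 8.27 ± 0.634%. In the ratio of LBR to EMD per kb, the H1R18 library stood at 0.52 against 1.09 and 1.18 in NC.

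Over the 4 comparisons with NC, LMNB1 had the widest range of log2 fold changes among the 10 genes, 1.13, followed by SYNE1 with 1.03. Among 7117 genes whose average log2 CPM reached 5, genes near to LMNB1 by the root mean square difference of the 4 log2 fold changes included BRCC3 (0.0605), CERK (0.0805), PRKACB (0.101) and EIF1AX (0.115). BRCC3, a deubiquitinase gene, had 0.04, 0.18, -0.32 and -0.98 in H1, H1R1, H1R6 and H1R18. Of the other members, LBR ranked 92nd in this order, LMNA 488th and TMPO 713th, while EMD and SUN2 ranked 5900th and 6250th. The 4 comparisons share the NC libraries.

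SYNE1 spans 516 kb and SYNE2 465 kb of genome, the 2 longest genes of the set. This property was looked up after their values were seen. Among 272 genes that span 400 kb or more and reach an average log2 CPM of 3, the median log2 fold change of H1R1 against NC was -0.19, with quartiles of -0.45 and 0.04, and 19.5% were called lower and 5.51% higher. Over all 11747 genes at that level the median was 0.0051, and 13.8% were called lower and 16.5% higher. SYNE1 at -0.97 was the 11th lowest of the 272 long genes and lay under their first decile of -0.74, and SYNE2 at -0.06 was the 174th lowest. In H1R6 against NC the same 272 genes had a median of -0.20, and 20.6% were called lower and 2.21% higher, where 6.85% and 4.96% of all 11747 were. SYNE1, at -0.23 in H1R6, was not called at that time. The part of gene length in the SYNE1 value was not tested.

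**Figure D4:**
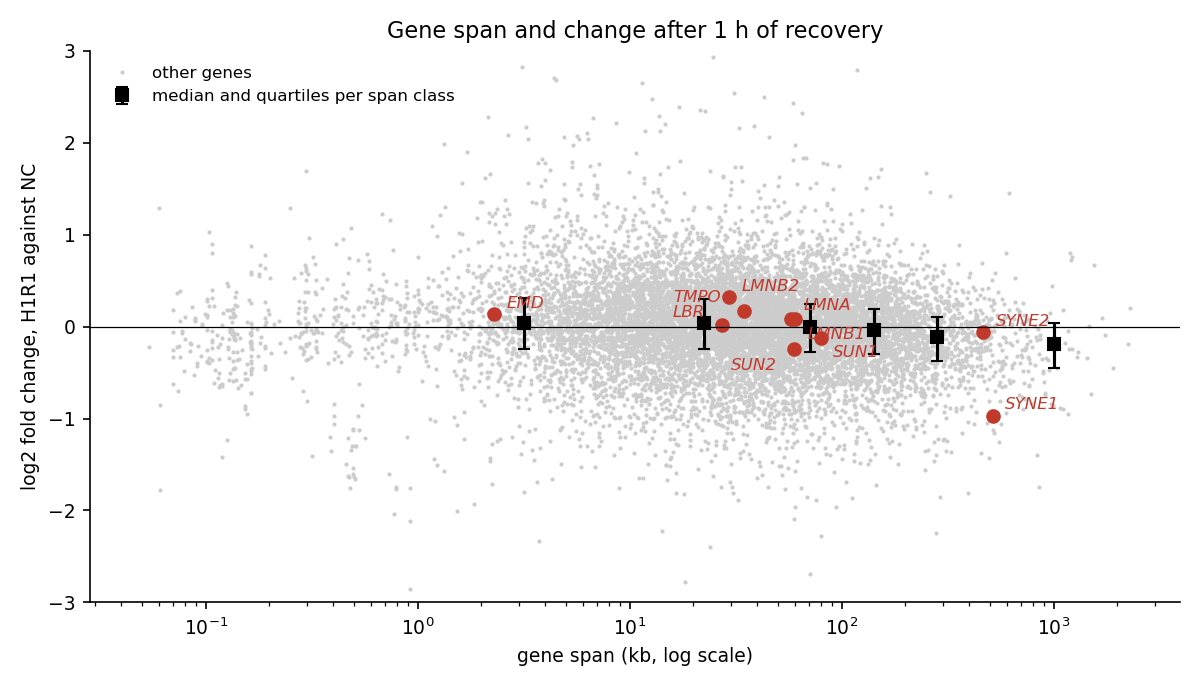
Log2 fold change of H1R1 against NC (vertical axis) by gene span (horizontal axis, kb, log scale) for 11747 genes, of which 14 lie beyond the axis limits of -3 and 3. Black squares are medians with quartiles per span class and red points are the 10 envelope genes. SYNE1 lies well under the median of the longest class at -0.19, and SYNE2 lies above it.

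Other genes of the envelope were counted in 6 lists, whose counts stand beside the 5.20%, 20.2%, 7.03% and 11% of all tested genes that passed in H1, H1R1, H1R6 and H1R18 against NC. Of 8 tested genes among 11 further LINC and torsin genes, 0 passed in H1 by edgeR (2 at an unadjusted p under 0.05, and 0 by DESeq2), and 3 were higher and 1 lower in H1R1, where 10.7% of all tested genes were higher and 9.53% lower. TOR1AIP2, which encodes the torsin activator LULL1, had 530 and 505 CPM in H1R1 against 314 and 310 CPM in NC (log2 fold change 0.73 ± 0.07 SE, adjusted p = 2.34e-09), and it was still higher in H1R6 (0.29 ± 0.07 SE, adjusted p = 0.00806). TOR1AIP1, for the related activator LAP1, and FHOD1, a formin that binds nesprin-2, rose by 0.37 and 0.41 (adjusted p 0.0287 and 0.0162). SYNE3, the nesprin-3 gene, whose product links the envelope to plectin and intermediate filaments, had 23.1 and 19.2 CPM in H1R1 against 33.4 and 32.9 CPM in NC (log2 fold change -0.64 ± 0.19 SE, adjusted p = 0.0137). In H1R18 FHOD1 alone of the 8 passed, 0.63 higher (adjusted p = 0.00524). The H1R1 calls were lost for TOR1AIP1 without NC replicate 1 or either H1R1 library (adjusted p 0.0699 to 0.172), for FHOD1 without NC replicate 2 or H1R1 replicate 1 (0.106 and 0.233) and for SYNE3 without NC replicate 1 or H1R1 replicate 2 (0.0701 and 0.106), so that the 4 calls became 2 without either H1R1 library, and DESeq2 called 1 gene of the list in H1R1. The median of the list was 0.20 in H1, 0.32 in H1R1 and 0.03 in H1R18, beside -0.0052, -0.011 and -0.031 over all tested genes. In H1, 1 gene of the list was called higher with no low-count filter and with at least 10 counts in every library. The same count was given without the H1R18 library and with counts divided by 2.

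Of 10 further inner membrane and LEM-domain genes, 8 were tested. ANKLE2, a LEM-domain gene that acts on BANF1, had 253 and 259 CPM in H1 against 214 and 192 CPM in NC (log2 fold change 0.33 ± 0.08 SE, adjusted p = 0.00997). It had 282 and 299 CPM in H1R1 (0.51 ± 0.08 SE against NC, adjusted p = 1.71e-05). In H1R1, 2 of the 8 genes were higher and 1 lower, where 20.2% of all tested genes passed (10.7% higher and 9.53% lower), and library-size scaling gave 2 higher and 3 lower. ANKLE1, a LEM-domain nuclease gene, had 5.68 and 5.86 CPM in H1R1 against 0.816 and 0.522 CPM in NC, and NEMP2 had 5.35 and 2.81 CPM in H1R1 against 13.5 and 15.1 CPM in NC. Both rest on low counts. By edgeR 0 passed in H1R6 (1 at an unadjusted p under 0.05, and 0 by DESeq2). LEMD2, another LEM-domain gene, was higher in H1R18 (0.51 ± 0.14 SE, adjusted p = 0.0187), where DESeq2 called 0 of the list. The ANKLE2 call in H1 was lost without NC replicate 2 (0.107) or without H1 replicate 1 or 2 (0.0648 and 0.0999).

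Of 7 chromatin partners of the envelope, 0 passed in H1 by edgeR (2 at an unadjusted p under 0.05, and 0 by DESeq2). BANF1, whose product bridges DNA and LEM-domain proteins, was higher in H1R1 (0.38 ± 0.12 SE, adjusted p = 0.0229), and CBX5, for heterochromatin protein 1 alpha, was lower in H1R1 (-0.28 ± 0.07 SE, adjusted p = 0.00233) and H1R6 (-0.38 ± 0.07 SE, adjusted p = 0.000282). CBX5 had 776 CPM in H1R18 against 660 and 667 CPM in NC, so that the lone library lay above both control libraries (0.23 ± 0.08 SE). Its adjusted p of 0.0657 missed the threshold there, and 10 of 17 alternatives called it higher. CBX3, for the gamma form, was lower in H1R18 (-0.42 ± 0.10 SE, adjusted p = 0.0061). The H1R1 calls were lost for BANF1 without NC replicate 2 (log2 fold change 0.31) or H1R1 replicate 1 (0.30), and for CBX5 without H1R1 replicate 1 (-0.21). With DESeq2 and with library-size scaling 0 genes of the list were higher in H1R1, so the BANF1 call was lost there too.

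Of the 5 lamin maturation genes, ZMPSTE24, the protease that trims prelamin A, had 90.5 and 97.1 CPM in H1R1 against 62.4 and 64.2 CPM in NC (log2 fold change 0.57 ± 0.11 SE, adjusted p = 0.000372). In H1R18 it had 38.5 CPM, below NC (-0.72 ± 0.16 SE, adjusted p = 0.00244). ICMT, the methyltransferase for farnesylated lamins, had 115 CPM in H1R18 against 181 and 182 CPM in NC (-0.66 ± 0.11 SE, adjusted p = 0.000138). In H1 and H1R6, 0 of the 5 passed by edgeR (0 and 1 at an unadjusted p under 0.05, and 0 in both by DESeq2).

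The list of 15 sealing and lipid genes had 0 calls in H1 and 0 in H1R6 by edgeR (1 in each at an unadjusted p under 0.05, and 0 in both by DESeq2). CHMP7, which starts the assembly of the sealing machinery at the envelope, was lower in H1R1 (-0.59 ± 0.17 SE, adjusted p = 0.0106), a call lost without NC replicate 1 (0.126) or H1R1 replicate 1 (0.0677). With upper-quartile scaling, with library-size scaling and with at least 10 counts in every library, the list had 2 lower genes in H1R1. The count also moved without H1R1 replicate 2. In H1R18 the ESCRT partner BROX (-0.99 ± 0.17 SE, adjusted p = 0.000185) and CHMP2B (-0.68 ± 0.19 SE, adjusted p = 0.0143, and 0.0623 without NC replicate 2) were lower, and LPIN1, a phosphatidate phosphatase gene, was higher (0.77 ± 0.18 SE, adjusted p = 0.00527).

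Of 16 proliferation genes, 0 passed in H1 by edgeR (1 at an unadjusted p under 0.05, and 0 by DESeq2), 4 were higher and 1 lower in H1R1, 5 higher and 2 lower in H1R6, and 1 higher and 5 lower in H1R18. Over all tested genes 10.7% were higher and 9.53% lower in H1R1, 3.0% and 4.03% in H1R6, and 4.58% and 6.43% in H1R18. These counts moved with the libraries used and with the scaling. In H1R1 they were 1 higher and 0 lower without H1R1 replicate 1, 4 and 0 without NC replicate 1, 2 and 1 without NC replicate 2, 3 and 2 without H1R1 replicate 2, and 1 and 4 with library-size scaling. In H1R6 they were 3 higher and 1 lower without NC replicate 1, and 2 and 1 without H1R6 replicate 2. CCNB1, CDK1 and TOP2A lost their H1R6 calls in both of these cases (adjusted p 0.174, 0.0871 and 0.305 without NC replicate 1). In H1R18 there were 3 lower genes without NC replicate 2 or any one H1 or H1R6 library, and 3 with DESeq2. CENPF and RRM2 then lost their calls (0.065 and 0.0704 without H1 replicate 1), and they were called in 4 and 2 of 17 alternatives. Without NC replicate 1 the H1R18 counts were 0 higher and 4 lower. In H1R18 the replication genes MCM2, PCNA and MCM5 were lower by 0.59, 0.58 and 0.48 on the log2 scale, with adjusted p of 0.000309, 0.000361 and 0.00162, while TOP2A was higher (0.29 ± 0.08 SE, adjusted p = 0.0158, and 0.0859 without NC replicate 1). The mitotic gene BUB1 was higher in H1R1 and H1R6 (0.50 and 0.53, adjusted p of 0.000111 and 0.000135). In H1R6 the proliferation marker MKI67 was higher (0.37, adjusted p = 0.00028) and MCM5 lower (-0.44, adjusted p = 0.000489), and MCM2 was lower too (-0.40, adjusted p = 0.00211, and 0.0893 and 0.0777 without NC replicate 1 and H1R6 replicate 2). In H1R1 the calls of RRM2, MKI67 and MCM5 (0.25, 0.20 and -0.25, adjusted p 0.0183, 0.025 and 0.0245) were each lost without 1 library or more, among them H1R1 replicate 1 for all 3 (0.0813, 0.148 and 0.121). PLK1, a mitotic kinase gene, was called higher in H1R1 (0.26, adjusted p = 0.0476) and kept the call in 6 of 18 alternatives. It was lost without H1R1 replicate 1 (0.166) and without NC replicate 2 (0.416), so that BUB1 alone stayed higher without H1R1 replicate 1. The median of the list was -0.13 in H1R18 beside -0.07 for the 10 envelope genes. The part of proliferation in the changes of LMNB1, LBR and TMPO was not tested.

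**Figure D5:**
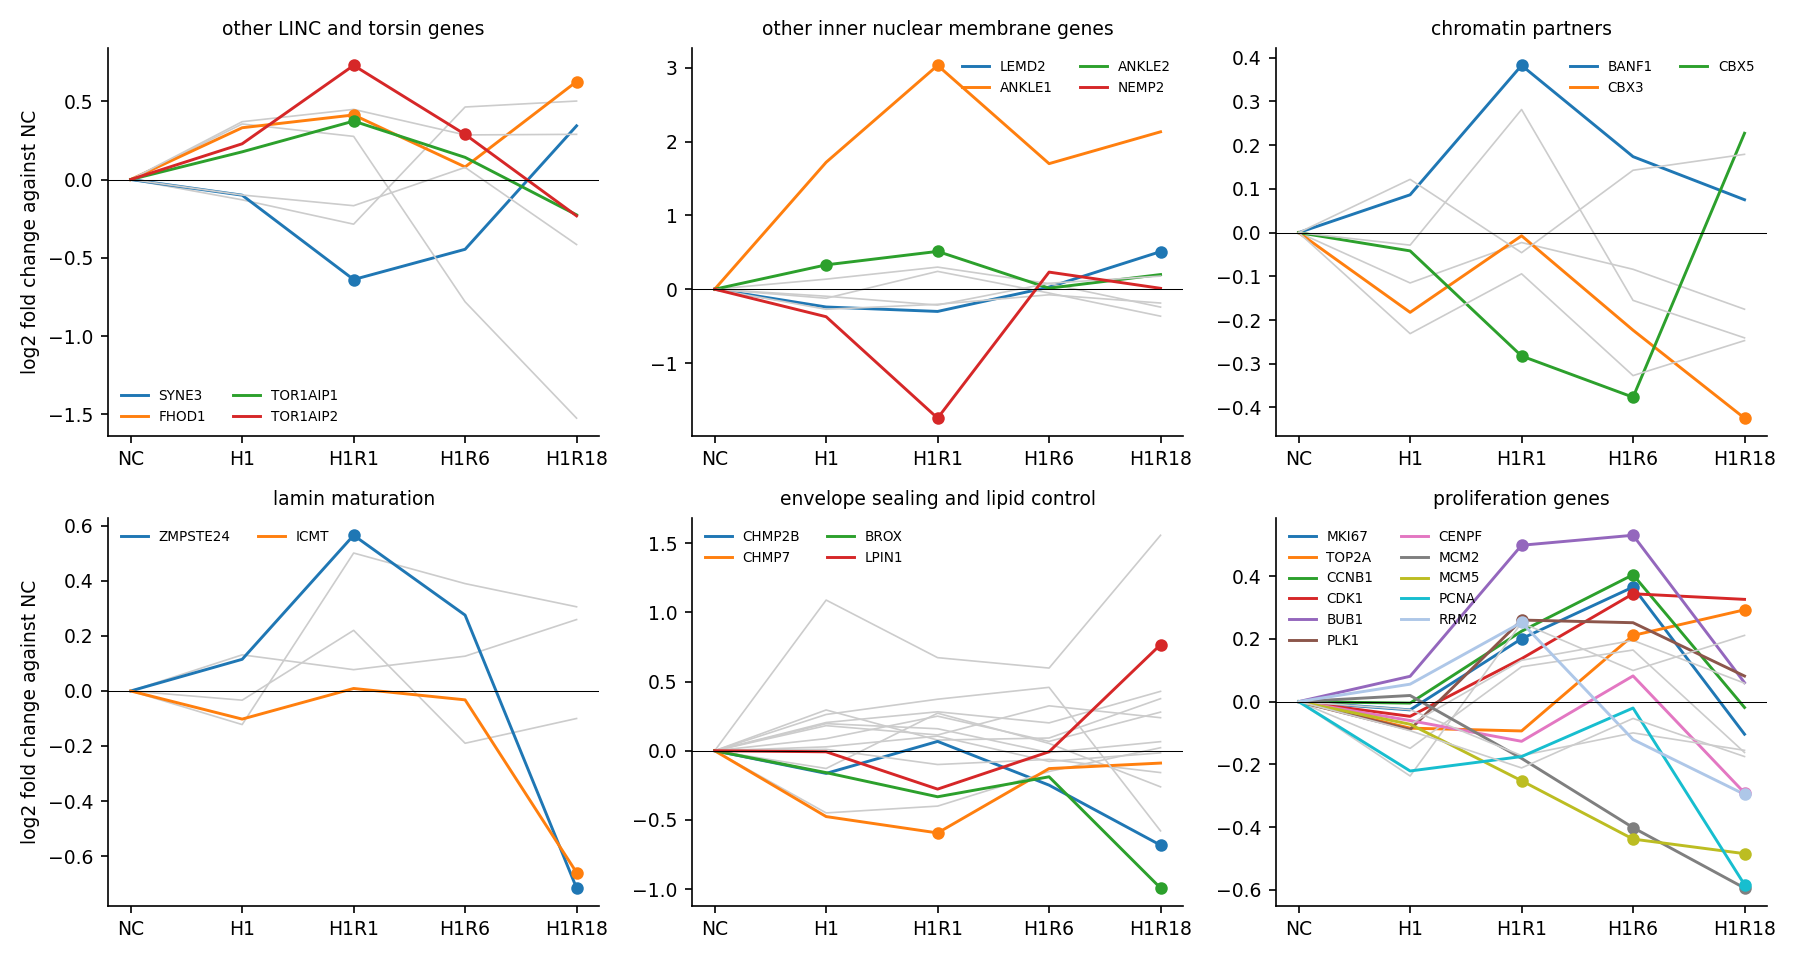
Log2 fold change against NC (vertical axes, with NC at 0) by condition for the 6 lists of related genes. Coloured lines are genes called at least once, filled points mark the calls and grey lines are genes never called. TOR1AIP2 peaks at 0.73 in H1R1, and ICMT and ZMPSTE24 end at -0.66 and -0.72 in H1R18.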

How the data were processed

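HEK293T total RNA was depleted of ribosomal RNA and sequenced in 9 libraries. The authors deposited raw counts per gene from featureCounts 2.0.2 with the Ensembl 104 annotation of GRCh38, unstranded, with each read of a pair counted and ambiguous or multi-mapping reads left out. Per the labels, the processing notes also name FastQC 0.11.8, cutadapt 4.1, HISAT2 2.2.1 and DESeq2 1.38.3. Genes that passed filterByExpr (minimum count 10, minimum total 15) were tested with edgeR 4.0.16 (quasi-likelihood, TMM scaling, all 9 libraries in one fit) in 7 comparisons, with Benjamini-Hochberg adjustment over the 21139 tested genes and a threshold of 0.05. The SE is the absolute log2 fold change divided by the square root of F. The fit was tested on simulated data. All simulated libraries were given the fitted spread, so this cannot check that the lone H1R18 library varies like the others. Depth was 3814195 to 6221613 counts. The named genes were all 10 members, up to 4 called genes per list and comparison with the smallest adjusted p, DNAJB1 and HSPH1 as heat checks, and the 5 nearest genes to the member of widest range, of which 1 is not reported here. HSPH1 had log2 fold changes of 3.68, 4.34, 4.26 and 1.27 in H1, H1R1, H1R6 and H1R18. Replicates differed by more than sampling noise (chi-square per degree of freedom 1.59 to 2.15 over read pairs). This spread may be technical and does not show separate cultures. Each library was counted by itself. The members and lists were chosen with earlier results of these data known. The study's methods name no RNA-seq test for these groups. In all 18 alternatives were tried, 8 of them leaving out a library. Promoter windows came from RefSeq (GRCh38.p14). For the 3 genes shown, chosen after their values were seen, the window nearest to the gene start was taken.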

Additional observations from a re-analysis of the deposited data

Results flagged for a closer look

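The effects against NC differed between neighbouring time points in 12 cases, by the test of the difference itself in the fit across all 21139 genes. Of all tested genes, 11.4% passed from H1 to H1R1, 15.4% from H1R1 to H1R6 and 13.9% from H1R6 to H1R18. Each is a log2 fold change of the later time against the earlier one. From H1 to H1R1 these were SYNE1 at -1.03 and TMPO at 0.26. From H1R1 to H1R6 they were LMNB1 at -0.36, LMNB2 at -0.24 and SYNE1 at 0.74. From H1R6 to H1R18, where the later time is 1 library, they were LMNB1 at -0.77, LBR at -0.68, LMNA at -0.54, TMPO at -0.50, SUN2 at 0.53, SUN1 at 0.51 and EMD at 0.36. Some alternatives lost the TMPO call from H1 to H1R1 and each of the calls from H1R1 to H1R6. Some also lost those of SUN2 and EMD from H1R6 to H1R18. SYNE1 appears in both directions, and LMNB1 in the same direction at both later steps. The cause of these differences was not tested.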

How the results depend on the processing

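The calls of SYNE1 and LMNB2 in H1R1 and of LMNB1, LBR and TMPO in H1R18, each against NC, held in every alternative run. Against NC in H1R6 the number of genes called was 0 with library-size scaling, with no low-count filter, with DESeq2 and with a fit of the conditions compared alone, and in H1R18 it was 3 with DESeq2. Without 1 library the number called ranged from 0 to 1 in H1R6 and from 3 to 6 in H1R18 against NC, from 1 to 4 in H1R1 against H1 and from 1 to 3 in H1R6 against H1R1. Of 52 log2 fold changes, 4 changed sign under other settings and 11 without a library, none of them called. LBR in H1R1 was -0.012 with upper-quartile and -0.045 with library-size scaling. LMNB2 in H1R18 was 0.0015 with library-size scaling, 0.013 with at least 10 counts in every library and 0.0016 with the conditions compared alone. EMD in H1 was 0.017 with no filter, 0.0081 with at least 10 counts and 0.0016 with the conditions compared alone, and LBR in H1R6 was 0.00029 with no filter. Leaving out each library, the H1 values ranged from -0.0040 to 0.060 for LBR, -0.011 to 0.16 for LMNB1, -0.17 to 0.27 for SYNE1, -0.086 to 0.089 for EMD and -0.15 to 0.042 for SUN2. LBR ranged from -0.011 to 0.054 in H1R1 and from -0.044 to 0.015 in H1R6, EMD from -0.056 to 0.19 and SUN2 from -0.12 to 0.080 in H1R6, and SYNE1 from -0.25 to 0.066 and LMNB2 from -0.084 to 0.076 in H1R18. In raw counts, with no division by exon length, the LMNB1 share was 18.2% in H1R18 and 29.97% in NC, the SUN1 share 70.0% in H1R18 and 72.7% in NC, and the SYNE1 share 6.77% in H1R1 and 11.9% in NC. Over all genes DESeq2 called 550, 2701, 903 and 1387 genes in H1, H1R1, H1R6 and H1R18 against NC, where edgeR called 1100, 4269, 1486 and 2327, and 1340, 1898 and 1853 between neighbouring times, where edgeR called 2417, 3248 and 2946. Library-size scaling called 1821 genes higher and 2487 lower in H1R1 against NC, where TMM gave 2254 and 2015, 1028 and 1342 in H1R1 against H1 (TMM 1343 and 1074), and 1946 and 1177 in H1R6 against H1R1 (TMM 1360 and 1888). With at least 10 counts in every library, 605 of 13516 genes were higher and 324 lower in H1 against NC, and 810 and 847 in H1R6 against NC. With this filter 1351 were higher and 1154 lower in H1R1 against H1, and 1475 and 1668 in H1R6 against H1R1. The cause of these differences was not tested. The labels do not say whether same-numbered libraries were prepared as pairs. Their deviations were correlated between -0.077 and 0.015, which shows little shared deviation and cannot settle how they were prepared. With a replicate block the members called against NC were 0, 2, 1 and 6 in H1, H1R1, H1R6 and H1R18, and the count over all genes was 1069, 4180, 1452 and 2084. Pairs of libraries and the lone H1R18 library limit what small changes could be detected.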
